A study of Mus musculus with 48 samples.

Results

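The transcripts of the mouse mitochondrial genome were described as every gene of the deposited count table whose name begins with mt-, which gave 37 of 48795 genes: 13 mRNAs, 2 rRNAs and 22 tRNAs. They were measured by RNA sequencing in 48 libraries of cerebral cortex from mice aged 12 months, labelled C57BL/6, with 4 female and 4 male libraries in each of 6 genotypes. The Q140 allele was absent or present, and each state was combined with normal Msh3, Msh3+/- or Msh3-/-; mice with neither mutation are called wild type and those with both Q140 Msh3+/- and Q140 Msh3-/-. Every Q140 animal was labelled heterozygous for a knock-in of expanded CAG repeats at Htt, a mouse model of Huntington disease, and Msh3 encodes a DNA mismatch repair protein that drives the expansion of such repeats in somatic cells. The kind of Msh3 mutation is not given in the sources used here, and all groups share the strain, the tissue and the age.

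The mitochondrial genome is a small circle of DNA, held in many copies per cell, that encodes core subunits of the respiratory chain and the rRNAs and tRNAs needed to translate them inside the organelle. Both strands are transcribed into long precursors, and the tRNAs that lie between the other genes are cut out to free the mRNAs and rRNAs. Neurons depend on the respiratory chain for most of their ATP. The nuclear genome carries pieces of mitochondrial DNA, and where such a piece is nearly identical to its origin a short read can fit both places.

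Library totals ran from 37.7 to 68.3 M (mega) counts, with a median of 48.6 M. Counts of Msh3 separated the 3 Msh3 genotypes without overlap, with 20.3 to 23.6 CPM (here per mega of all gene counts) in Msh3+/+ libraries, 53.8 to 64.1 in Msh3+/- and 83.5 to 112 in Msh3-/-, so the label with more mutant alleles had more counts. The summed level of 8 markers of glutamatergic cortical neurons was 1924 to 2288 CPM, and that of 6 markers of striatal projection neurons 141 to 189 CPM. The level of 6 choroid plexus markers was 609 CPM in 1 Msh3+/- library (male 2) against a median of 7.51, and that of 6 pituitary markers was 44.9 CPM in wild-type male 2 and 14.1 in Msh3+/- male 1. The labels do not state that each library is a separate mouse, so p-values measure the spread between these libraries. Fewer mitochondria, fewer cells and less RNA per mitochondrion cannot be told apart in bulk tissue.

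The nuclear copies are shown first because they bear on how far each level can be read. Every transcript was compared with the other GENCODE M21 transcripts on GRCm38. A cluster of 7 pseudogenes on the minus strand of chromosome 1 (chr1:24611535-24616197) matched the mitochondrial genome from the last part of mt-Co1 to the first part of mt-Nd4, at 99% identity or more. Gm28661 was identical to mt-Co2 over 681 of its 684 bases, Gm10925 to mt-Atp6 over 678 of 681, Gm28437 to mt-Co3 over 783 of 784 and Gm10222 to mt-Nd4l over 294 of 297. Gm28438 differed from mt-Nd3 by 1 base in 345 (T3C, counted from the first base of the mitochondrial transcript). Gm28439 was identical to the first 876 bases of mt-Nd4, and Gm29216 matched bases 1063 to 1545 of mt-Co1 with 1 difference. By the offset of Gm10925 mt-Atp8 falls at chr1:24614609-24614812. Gm10925 reaches chr1:24614651, and so covers the 43 bases that mt-Atp8 shares with mt-Atp6. In the rest of that interval no copy is annotated and no sequence was read. A second cluster, on chromosome 2, was less alike: Gm13340 matched the whole of mt-Co1 at 97.6% identity. No transcript matched mt-Nd1, mt-Nd6, mt-Cytb or either rRNA at 95% identity over 100 bases.

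The starts of mt-Nd3 and its chromosome 1 copy, and a stretch of mt-Co1 with its copies on chromosomes 1 and 2, show how few bases tell a mitochondrial read from a nuclear one. Capitals mark the bases that differ; the substitution from mt-Co1 is A1066T in Gm29216 and T1072C in Gm13340, and all are from GENCODE M21 transcripts on GRCm38, 5′ to 3′.
mt-Nd3: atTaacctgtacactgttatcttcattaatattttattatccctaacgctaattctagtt
Gm28438: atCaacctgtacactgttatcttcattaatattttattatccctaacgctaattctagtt
mt-Co1: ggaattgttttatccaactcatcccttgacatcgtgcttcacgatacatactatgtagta
Gm29216: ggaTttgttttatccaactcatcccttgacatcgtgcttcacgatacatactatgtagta
Gm13340: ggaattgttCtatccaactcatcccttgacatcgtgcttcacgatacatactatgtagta
In these 60 bases of mt-Nd3 a read that misses position 3 has the same letters in both places. The start of mt-Nd4l and that of Gm10222 hold no difference to mark.

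Levels between genes were compared on the deposited FPKM values (counts scaled to gene length and library total). mt-Co1, a catalytic subunit of cytochrome c oxidase at chrM:5328-6872, was the most abundant gene of the whole table in all 48 libraries, with 8915 FPKM in the lowest library, a median of 11457 and 14440 in the highest. mt-Cytb, the cytochrome b subunit of complex III, had a median of 6862 FPKM and mt-Nd1, a membrane subunit of complex I, 5498 FPKM. They ranked 2 and 3 among all genes in every library. The complex I subunits mt-Nd2, mt-Nd5 and mt-Nd4 followed at medians of 3509, 2383 and 2047 FPKM. mt-Rnr1 and mt-Rnr2, the small and large ribosomal RNAs, stood among them at 2140 and 1495 FPKM, in libraries whose sample titles name mRNA.

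Neighbours in that order were separated in every library down to mt-Nd2, since mt-Co1 was above mt-Cytb, mt-Cytb above mt-Nd1 and mt-Nd1 above mt-Nd2 in 48 of 48 libraries. mt-Nd5 was above mt-Rnr1 in 38 of 48 libraries and mt-Rnr1 above mt-Nd4 in 30 of 48, while mt-Nd5 was above mt-Nd4 in 48 of 48, so of those 3 only mt-Rnr1 changed place. mt-Nd6, the complex I subunit that is the only mRNA on the other strand (chrM:13552-14070), was lower, with 125 FPKM in the lowest library, a median of 183 and 274 in the highest. It shares 14 bases with mt-Nd5 on the opposite strand, and the strand setting of the counting is not given in the sources used here.

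The 6 mRNAs that lie wholly inside the stretch copied on chromosome 1 were far below the rest. Median FPKM was 3.20 for mt-Co2 and 2.62 for mt-Co3, both core subunits of cytochrome c oxidase, and 2.17 for mt-Atp6 and 1.90 for mt-Atp8, both subunits of ATP synthase. For the complex I subunits mt-Nd3 and mt-Nd4l it was 1.99 and 0.522. Together these 6 genes had 247 to 432 counts a library, a median of 0.0163% of the counts of the 13 mRNAs, although the genes that flank them, mt-Co1 and mt-Nd4, had at least 645815 and 105327 counts in every library. The highest count of any of them in any library was 151, of mt-Co2. The annotated copies of 5 of them had more counts than the genes themselves in the median: the median library had 389 counts of Gm28661 against 105 of mt-Co2, 456.5 of Gm10925 against 71 of mt-Atp6, and 32 of Gm10222 against 8 of mt-Nd4l. How reads that fit several places were counted is not given in the sources used here, and the part of such reads in these levels was not tested. These values were therefore read as counts assigned to the genes, not as the amount of their transcripts.

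**Figure D1:**
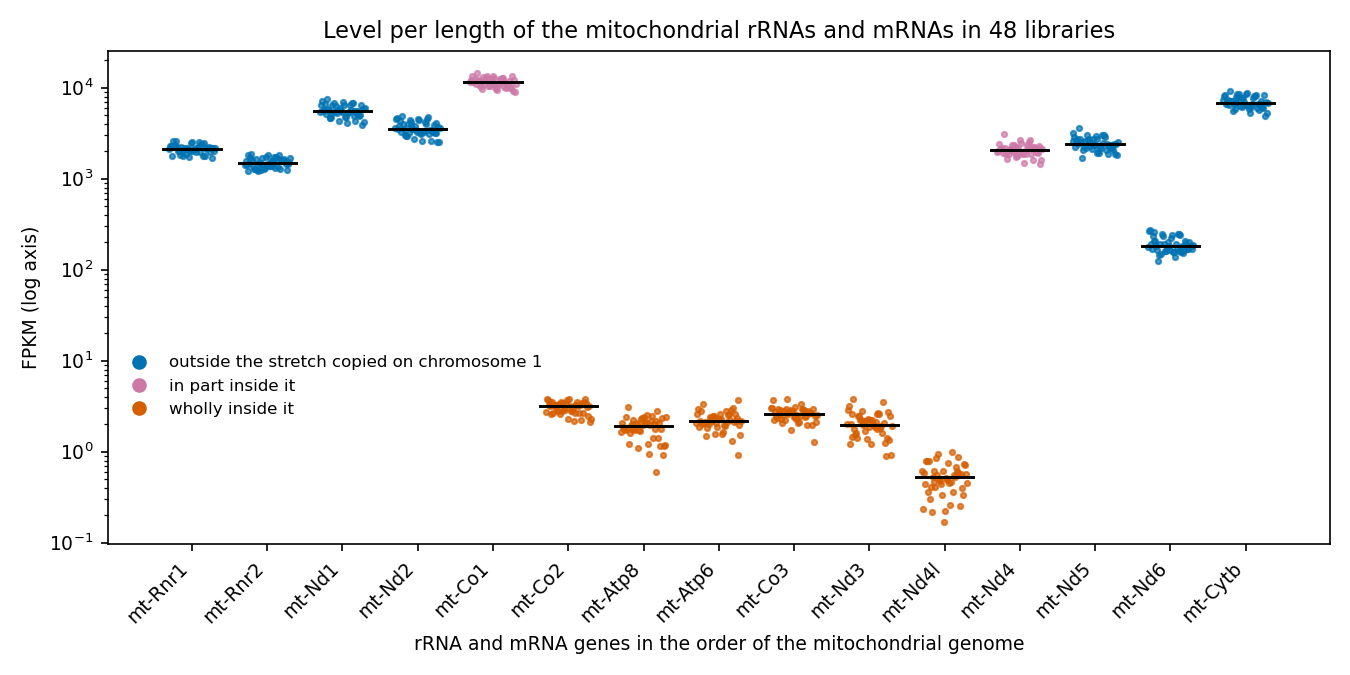
Deposited FPKM (log axis) of the 2 rRNAs and 13 mRNAs in genome order, 1 point per library and a line at the median, coloured by position relative to the stretch copied on chromosome 1. The 6 genes wholly inside the stretch have medians of 0.522 to 3.20 FPKM, and all others have medians of 183 FPKM or more.

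The copies also touch mt-Co1 and mt-Nd4, which lie inside the stretch in part. If counts came only from the bases outside the match, the median of mt-Co1 would be 16667 FPKM in place of 11457 and that of mt-Nd4 5620 in place of 2047, and mt-Nd4 would then stand above mt-Nd1. The order of mt-Nd4 among its neighbours thus depends on the length used. mt-Cytb, mt-Nd1 and the rRNAs have no such match.

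The tRNAs were barely sampled: 8 of 22 passed the filter on low counts, 14 did not, and 6 of those 14 had no count in any library. The highest was mt-Tw (tRNA for tryptophan), with 149 counts in the lowest library, a median of 268.5 and 462 in the highest. mt-Tp (proline) had a median of 76.5 counts, mt-Tm (methionine) 44, mt-Tq (glutamine) 40, mt-Ti (isoleucine) 39 and mt-Te (glutamate) 23. A further pair passed, mt-Tt and mt-Ta. Since the tRNAs are 59 to 75 bases long and several overlap an mRNA by a few bases (mt-Tw and mt-Nd2 share 2), a count can come from a read that belongs to a neighbour or a precursor, which was not tested.

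The share of all gene counts held by the 13 mRNAs was 3.18% in the lowest library (Q140 Msh3-/- male 1), 4.23% in the median library and 5.58% in the highest (wild-type male 4). In wild type it was 4.60% ± 0.539 (SD, n = 8), with a lowest, median and highest library of 3.99%, 4.47% and 5.58%. It was 4.17% ± 0.510 in Msh3+/- (3.55%, 4.15% and 4.92%) and 4.29% ± 0.418 in Msh3-/- (3.66%, 4.38% and 4.94%). In Q140 it was 4.14% ± 0.686 (3.25%, 3.93% and 5.13%), in Q140 Msh3+/- 4.23% ± 0.563 (3.45%, 4.10% and 4.97%), and in Q140 Msh3-/- 3.93% ± 0.579 (3.18%, 3.95% and 4.83%). Every genotype overlapped every other. The highest and the lowest mean, 4.60% in wild type and 3.93% in Q140 Msh3-/-, lay further apart than the SD within either of these groups. They are the extremes of the 6 genotypes, picked after the means were seen, and the SD within Q140 was larger, at 0.686.

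The 2 rRNAs held 0.361% to 0.546% of counts, with group means from 0.414% ± 0.0405 in Msh3+/- to 0.465% ± 0.0599 in wild type (SD, n = 8 each). The tRNAs together held 0.00111% ± 0.000206 (SD, n = 48). There were 9.64 ± 1.35 mRNA counts per rRNA count (SD, n = 48), from 8.99 ± 1.18 in Q140 Msh3-/- to 10.2 ± 1.62 in Msh3-/- (SD, n = 8 each), and these groups overlapped too. No test was made on these sums. The sample titles name mRNA, and the selection of RNA for the libraries can bear on the ratio of mRNA to rRNA counts. It compares counts, not amounts of RNA in the tissue.

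**Figure D2:**
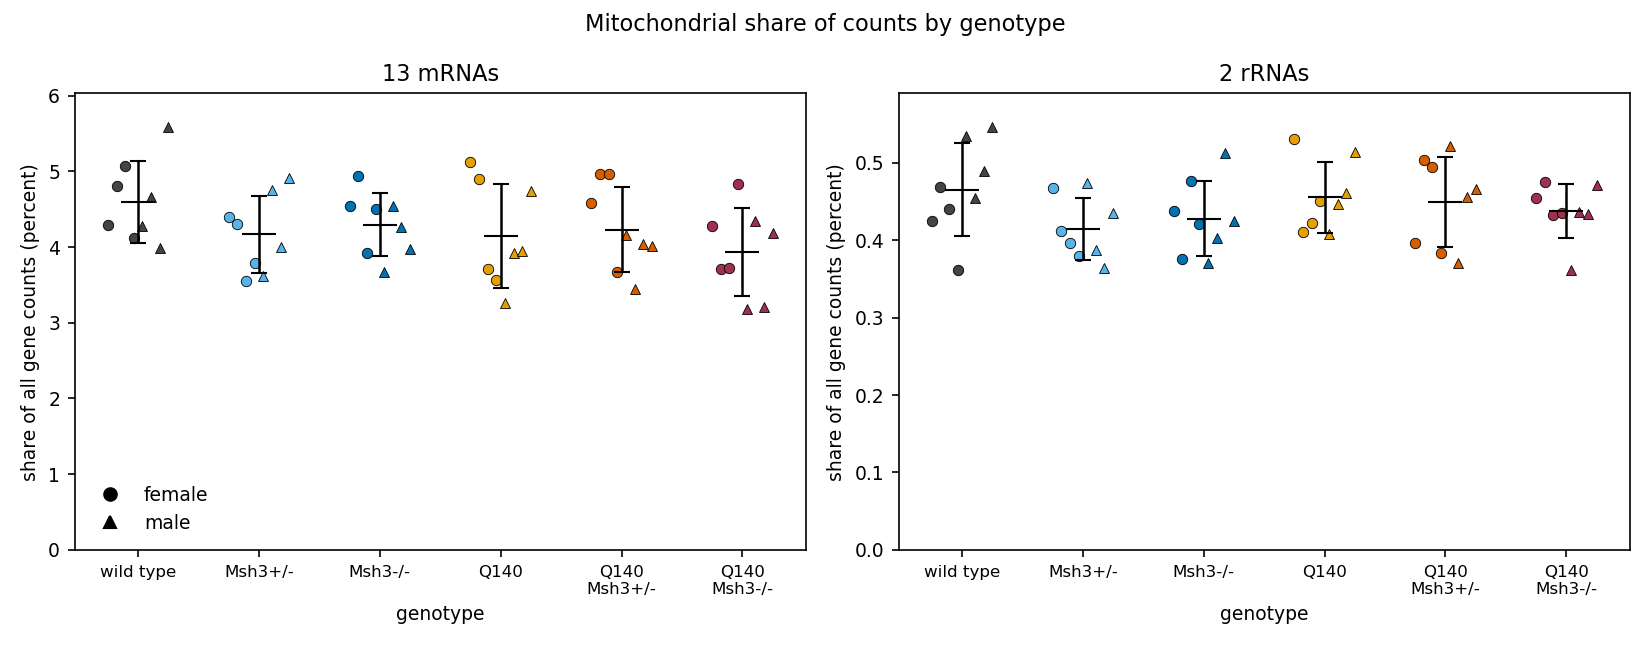
Percent of all gene counts held by the 13 mRNAs (left) and the 2 rRNAs (right) in each library by genotype, circles for females and triangles for males, with the group mean and SD as bars. The mRNA share spans 3.18% to 5.58% and all 6 genotypes overlap.

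Within the mRNA counts the shares of mt-Co1, mt-Cytb and mt-Nd5 were steadier, in proportion to their means, than the total. mt-Co1 held 42.2% ± 1.37 of the counts of the 13 mRNAs (SD, n = 48), mt-Cytb 18.9% ± 0.588 and mt-Nd5 10.5% ± 0.627. Some genes with low counts were less steady than the total, such as mt-Nd3 at 0.00168% ± 0.000439 and mt-Nd4l at 0.000376% ± 0.000141 (SD, n = 48). By genotype the mean share of mt-Co1 ran only from 41.4% ± 1.22 in wild type to 42.9% ± 0.820 in Msh3-/- (SD, n = 8 each).

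Over the 48 libraries, log2 CPM of mt-Co1 went with that of mt-Cytb (Pearson r = 0.964, Spearman rho = 0.963) and of mt-Nd1 (r = 0.925, rho = 0.925). Both relations had a two-sided permutation p of 1e-05, the smallest that 100000 permutations can give, and adjusted p = 1.87e-05 for r over the 15 relations computed. Without the 2 libraries farthest from the median of mt-Co1, r was 0.959 and 0.912, and within the 6 plate columns r with mt-Cytb ran from 0.913 to 0.988. The rRNAs followed less closely: r was 0.506 for mt-Rnr1 (rho 0.462, permutation p = 0.000230, adjusted p = 0.000327) and 0.191 for mt-Rnr2 (rho 0.169, permutation p = 0.192, adjusted p = 0.206). mt-Nd4l, with 3 to 14 counts a library, gave r = 0.0489 (rho 0.0977, permutation p = 0.742, adjusted p = 0.742). All these values share the library total and its normalization.

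mt-Co1 also went with the library total: r with log2 total counts was -0.429 (rho -0.435, permutation p = 0.00243, adjusted p = 0.00280), and -0.383 without the 2 farthest libraries. Within plate columns this r was negative in 5 of 6, from -0.867 to 0.0774. In a fit with genotype, sex and log2 total, the slope was negative in 22 of 23 tested members and 0 of 19547 genes were called. Unadjusted quasi-likelihood p was 0.00118 for mt-Cytb (slope -0.55), 0.00178 for mt-Nd4 (-0.55) and 0.00338 for mt-Co1 (-0.40), each with adjusted p = 0.444. It was 0.159 for mt-Nd6, and mt-Tp had the positive slope (0.47). Median totals were 46.8 M in wild type, 47.6 M in Msh3+/-, 50.4 M in Msh3-/- and 51.1 M in Q140, with overlap. With this covariate no member was called in the genotype comparisons. The part of depth in the levels was not tested beyond these fits.

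The comparisons used 1 edgeR quasi-likelihood model of 6 genotypes and sex over all 48 libraries, and a gene was called at a Benjamini-Hochberg adjusted p under 0.05 over 19547 genes. Fold changes are log2 differences of normalized counts with their standard error (SE). 23 members passed the filter on low counts: 13 mRNAs, 2 rRNAs and 8 tRNAs. Medians and sign counts over the 13 mRNAs include the 6 inside the copied stretch, whose values were read only as counts assigned. No member was called in any of the 13 comparisons. The lowest adjusted p of any member in any of them was 0.0971, of mt-Co2 between the sexes.

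For Q140 against wild type, the effect of the knock-in with intact Msh3, 0 of 23 members were called, against 0.102% of all genes tested. All 13 mRNAs had a log2 fold change below 0, with a median of -0.17 and a range of -0.28 to -0.11, while the median of all genes tested was 0.00. That mRNA median is the value of mt-Co2, inside the copied stretch. The 7 mRNAs not wholly inside the stretch ran from -0.24 (mt-Nd6) to -0.11 (mt-Nd4). mt-Co1 had 17187, 18646 and 22537 CPM in the lowest, median and highest wild-type library and 14318, 16665 and 20990 in Q140. The groups overlapped, and the log2 fold change was -0.15 (SE 0.085, adjusted p = 0.639). mt-Nd5, a proton-pumping subunit of complex I, had 4139, 4898 and 6582 CPM in wild type and 3438, 4081 and 5480 in Q140. It gave -0.23 (SE 0.12, adjusted p = 0.575), the lowest adjusted p among the mRNAs. mt-Rnr1 and mt-Rnr2 stood at -0.06 and -0.03. Of the 13 mRNAs, 0 had an unadjusted p under 0.05, and of the 8 tRNAs 1 did (mt-Ta), beside 8.8% of all genes. The size of the mRNA median depended on the libraries: it was -0.13 without wild-type male 4 and -0.08 without 20 libraries high in choroid plexus, pituitary or blood markers. The value without wild-type male 4 is that of mt-Atp6, also inside the stretch.

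Several marker lists differed in their medians between these groups, which was not tested. The summed level of 6 astrocyte markers, all of them with counts, was 5086, 5351 and 5655 CPM in the lowest, median and highest wild-type library and 4406, 4733 and 5136 in Q140. In Q140 Msh3+/- it was 4567, 4802 and 4958 CPM against 4976, 5331 and 5836 in Msh3+/-, and in Q140 Msh3-/- 4399, 4931 and 5072 against 4784, 5233 and 5799 in Msh3-/-. It was thus lower in the median with Q140 in each Msh3 state, without overlap in the Msh3+/- pair. Slc1a2 alone had a median of 4074 CPM, against 5035 for the sum. Endothelial, interneuron and oligodendrocyte markers were also lower in the median with Q140 in each Msh3 state, with overlap. Their medians in wild type and Q140 were 189 and 171, 1090 and 1051, and 1865 and 1810 CPM. Glutamatergic neuron markers were higher in each state (2060 and 2100 CPM). The medians of microglia, meninges, striatal, choroid plexus, pituitary and blood markers did not keep the same direction over the Msh3 states. The part of these lists in the mRNA levels was not tested.

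For Msh3+/- against wild type, 0 of 23 members were called, against 0.0307% of all genes. All 23 had a value below 0, with a median of -0.19 in the mRNAs, -0.17 in the rRNAs and -0.41 in the 8 tRNAs. The mRNA median is the value of mt-Atp8, inside the copied stretch. The 7 mRNAs not wholly inside the stretch ran from -0.35 (mt-Nd6) to -0.11 (mt-Co1). At an unadjusted p under 0.05 there were 6 members (4 tRNAs, mt-Nd6 and mt-Rnr1), beside 4.96% of all genes. These 23 values rest on the same libraries and several go together across them, so they are not 23 separate results. mt-Nd6 gave -0.35 (SE 0.13, adjusted p = 0.963): it had 87.6, 116 and 143 CPM in the lowest, median and highest wild-type library and 64.0, 89.1 and 128 in Msh3+/-, which overlap. mt-Rnr1 had 1714, 2203 and 2497 CPM in wild type and 1708, 1944 and 2177 in Msh3+/-, a log2 fold change of -0.17 (SE 0.078, adjusted p = 0.963). The mRNA median depended on which libraries were used: it was -0.11 without wild-type male 4, and without the 20 libraries high in choroid plexus, pituitary or blood markers, which left 3 Msh3+/- and 5 wild-type libraries, it was 0.02. The value without wild-type male 4 is that of mt-Nd3, also inside the stretch. With only the 3 libraries highest in choroid plexus or pituitary markers left out no mRNA changed sign.

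For Msh3-/- against wild type, 0 of 23 members were called, against 0.113% of all genes. All 13 mRNAs were below 0, with a median of -0.19 and a range of -0.30 (mt-Nd6, SE 0.13, adjusted p = 0.421) to -0.04 (mt-Co3, SE 0.13, adjusted p = 0.927). That median is the value of mt-Nd1. The 7 mRNAs not wholly inside the copied stretch ran from -0.30 (mt-Nd6) to -0.06 (mt-Co1). mt-Co1 had 15814, 18855 and 21319 CPM in the lowest, median and highest Msh3-/- library, a log2 fold change of -0.06 (SE 0.085, adjusted p = 0.834), with a 95% interval of -0.23 to 0.11. At an unadjusted p under 0.05 there were 4 members, 3 of them tRNAs, beside 10.8% of all genes. The mRNA median was -0.09 without wild-type male 4 and -0.08 without the 20 libraries named above. The value without wild-type male 4 is that of mt-Nd3, inside the stretch. These 3 comparisons share the wild-type libraries and are not independent of each other.

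**Figure D3:**
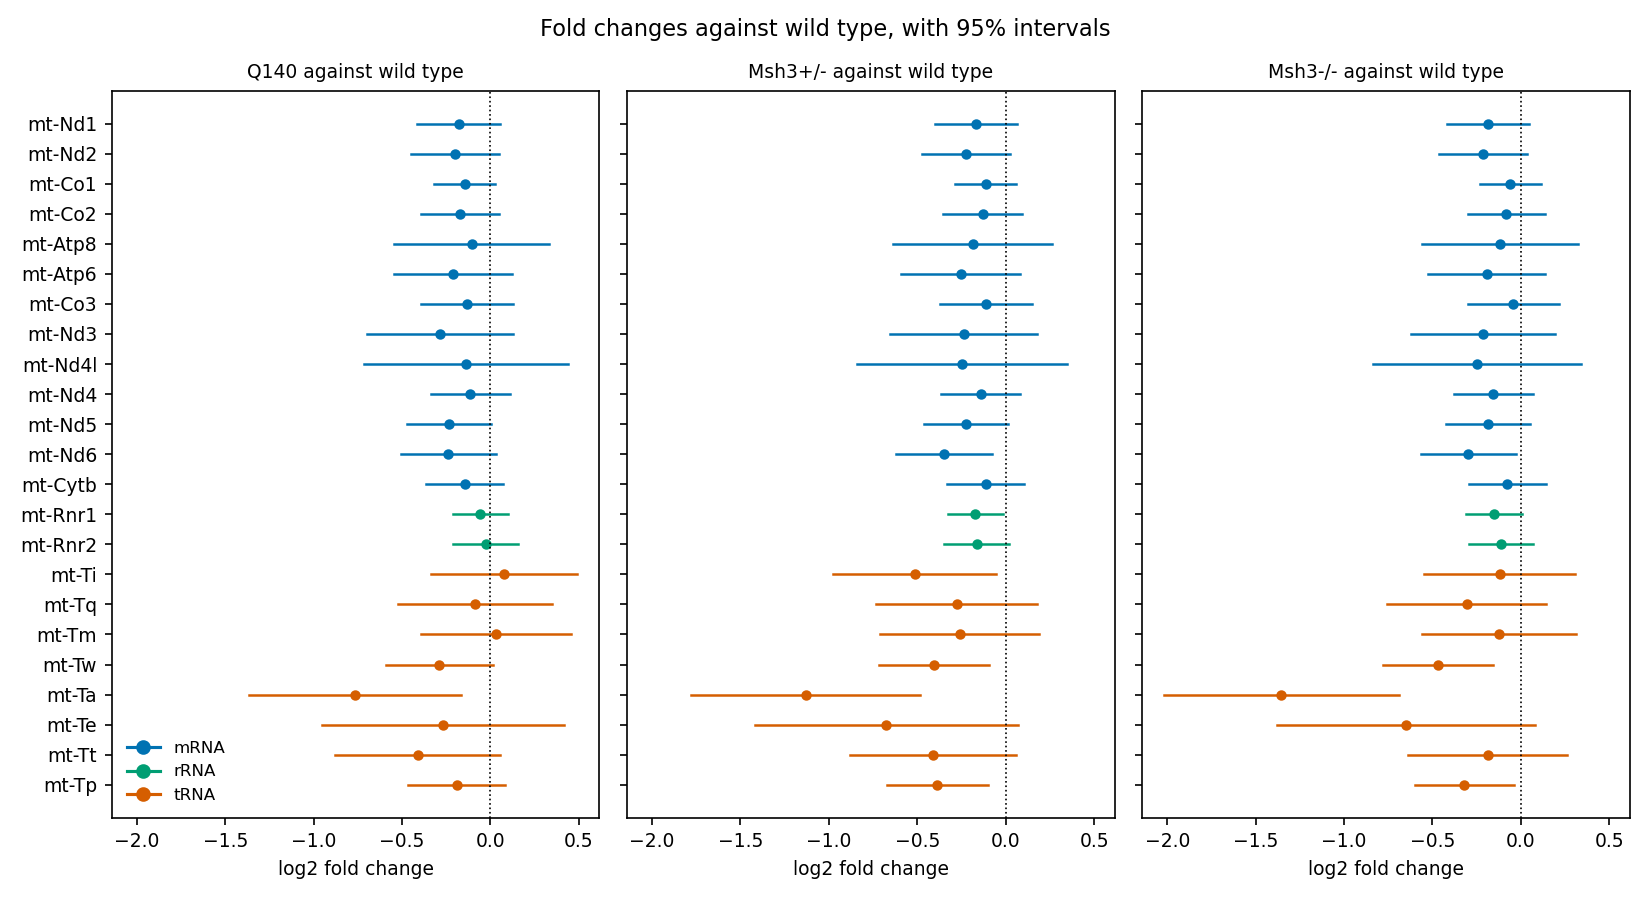
Log2 fold change against wild type with its 95% interval for the 23 members tested, in Q140 (left), Msh3+/- (middle) and Msh3-/- (right), coloured by kind of RNA. All 13 mRNAs lie below 0 in each, no member was called, and mt-Ta stands furthest left.

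mt-Ta, the tRNA for alanine on the minus strand at chrM:5018-5086, had the largest difference and was singled out after its values were seen, since its mean count falls under the minimum set for naming. It lies 1 base from mt-Tw, which is on the plus strand, and both are printed with their anticodon in capitals (GENCODE M21 on GRCm38, each on its own strand).
mt-Ta: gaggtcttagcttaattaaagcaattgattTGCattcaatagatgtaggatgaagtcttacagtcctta
mt-Tw: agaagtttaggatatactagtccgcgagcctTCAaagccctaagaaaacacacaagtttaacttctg
mt-Ta had 0.230, 0.347 and 0.708 CPM in the lowest, median and highest wild-type library. It had 0.0233, 0.175 and 0.401 CPM in Msh3+/-, 0.0330, 0.113 and 0.349 in Msh3-/- and 0.0891, 0.205 and 0.423 in Q140. In the double mutants it had 0.141, 0.237 and 0.329 CPM (Q140 Msh3+/-) and 0.0754, 0.227 and 0.384 (Q140 Msh3-/-). These levels rest on 1 to 36 counts a library, and every group overlaps wild type.

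The log2 fold change of mt-Ta was -0.77 in Q140 (SE 0.30, adjusted p = 0.422), -1.13 in Msh3+/- (SE 0.32, adjusted p = 0.524) and -1.35 in Msh3-/- (SE 0.33, adjusted p = 0.106). The unadjusted p of the last was 0.000136. It was called in Msh3-/- against wild type only when Msh3-/- female 2 (adjusted p = 0.0470) or Msh3-/- male 1 (adjusted p = 0.0199) was left out. The interaction, the Msh3-/- effect with Q140 minus that without it, was 1.38 (SE 0.48) with an unadjusted p of 0.00561 and an adjusted p of 0.9999. mt-Tw, 1 base away, had 5.49, 5.91 and 9.09 CPM in wild type and 3.47, 5.06 and 6.08 in Msh3-/-, a log2 fold change of -0.47 (SE 0.15, adjusted p = 0.302).

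**Figure D4:**
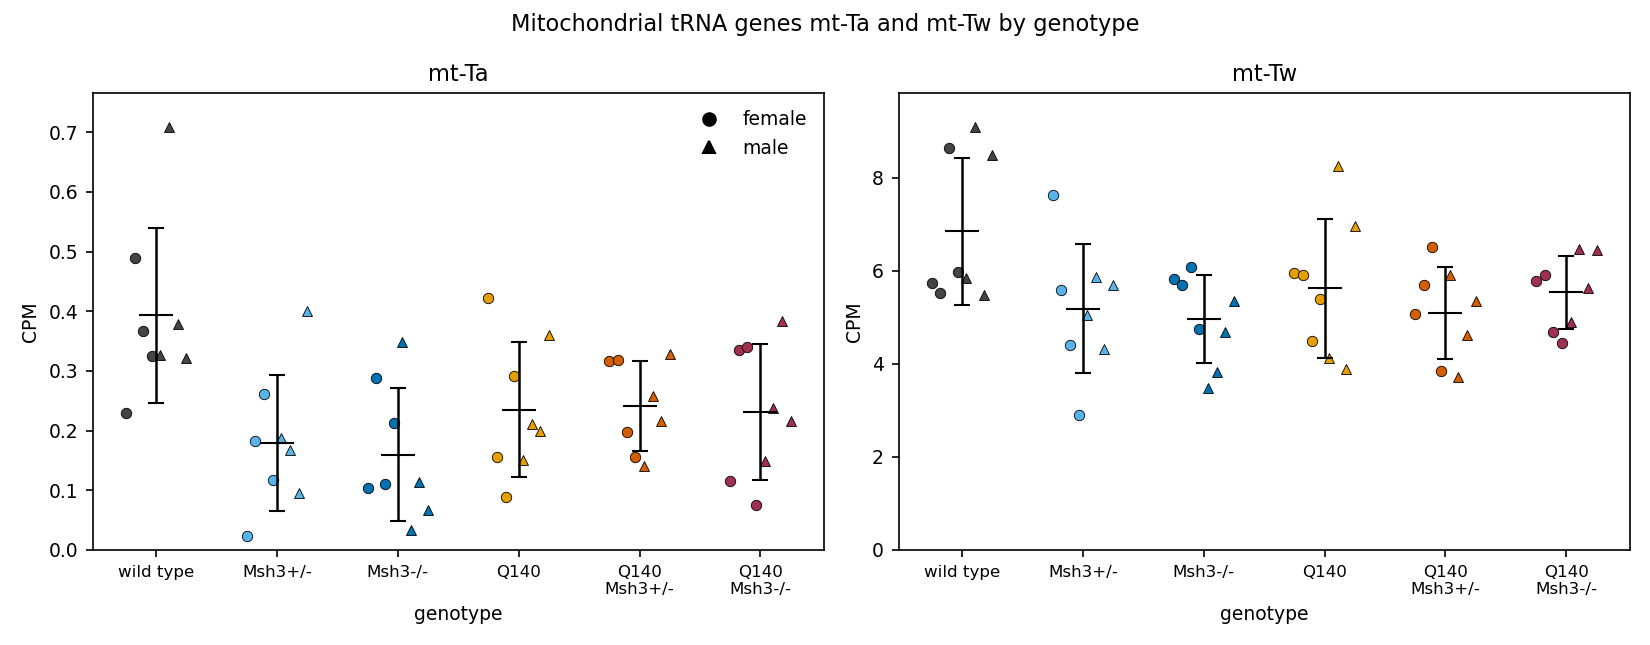
CPM of mt-Ta (left) and mt-Tw (right) in each library by genotype, circles for females and triangles for males, with the group mean and SD as bars. Wild-type libraries reach 0.708 CPM of mt-Ta and 9.09 CPM of mt-Tw, and every other group overlaps them.

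In Q140 mice no member was called between Msh3 genotypes. For Q140 Msh3+/- against Q140, 0 of 23 were called against 0.0307% of all genes, and the mRNA median was 0.04 with 11 of 13 above 0. For Q140 Msh3-/- against Q140, 0 of 23 were called against 0.102%, and the median was -0.09 with 12 of 13 below 0. mt-Co1 had 13448, 16408 and 20794 CPM in the lowest, median and highest Q140 Msh3-/- library, across the range of Q140. The smallest adjusted p of any mRNA was 0.830 in the first and 0.805 in the second comparison. The first median turned below 0 without Q140 female 4 (-0.005) or Q140 male 1 (-0.007). The second was -0.05 without any 1 of Q140 female 1, female 2 and male 4, and -0.007 with plate row as a term.

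The knock-in on a mutant Msh3 background gave 0 of 23 called in Q140 Msh3+/- against Msh3+/- (0.0512% of all genes) and 0 of 23 in Q140 Msh3-/- against Msh3-/- (0.0205%). The mRNA medians were 0.02 and -0.09. The first was below 0 in 3 of 16 fits that left out 1 library (without Msh3+/- female 3 or female 4, or Q140 Msh3+/- female 3), and ran from -0.07 to 0.14 under the other settings. The second was -0.05 without Q140 Msh3-/- male 1 or male 3. Averaged over Msh3, Q140 gave 0 of 23 called against 1.47% of all genes. The mRNA median was -0.09 with 12 of 13 below 0 (-0.05 with plate row as a term), and mt-Co1 stood at -0.10 (SE 0.049, adjusted p = 0.333). The rRNAs stood at 0.00 and 0.06.

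Averaged over Q140, Msh3-/- against Msh3+/+ gave 0 of 23 called against 0.215% of all genes, with an mRNA median of -0.13 and all 13 below 0. mt-Ta stood at -0.67 (SE 0.24, adjusted p = 0.182). In the interactions of Q140 with Msh3+/- and with Msh3-/-, 0 of 23 members were called by edgeR, against 0% of all genes in each. All 23 members were above 0 in the first, with an mRNA median of 0.22, and 18 of 23 in the second, with an mRNA median of 0.08 and 9 of 13 mRNAs above 0. These medians were 0.14 and 0.009 without wild-type male 4, 0.10 and 0.04 with plate column as a term, and 0.009 and -0.07 without the 20 libraries high in markers of other tissues. At an unadjusted p under 0.05 there were 1 and 2 members, tRNAs all, beside 3.3% and 3.2% of all genes, and DESeq2 and limma-voom called 0 members in each. The test of any difference among the 6 genotypes called 0 of 23 members against 0.45% of all genes, and its lowest member p was 0.00290 unadjusted and 0.192 adjusted (mt-Ta).

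Between the sexes 0 of 23 members were called, against 4.28% of all genes. The mRNA median was -0.08 (male minus female) with 11 of 13 below 0. It was -0.04 with the log2 library total as a covariate and -0.18 without the 20 libraries high in markers of other tissues. mt-Co2 stood at -0.18 (SE 0.064, adjusted p = 0.0971), but it lies inside the copied stretch. The mRNA share was 4.34% ± 0.535 in females and 4.11% ± 0.576 in males (SD, n = 24 each).

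The labels give a well of a plate for each library, and the genotypes were not spread evenly over it. Of 8 wild-type libraries 4 were in column 3, which had the highest mean mRNA share, 4.66% ± 0.413 (SD, n = 8), against 3.88% ± 0.610 in column 2. Column 3 held no library of the groups Q140 and Msh3+/-. Where a column held both genotypes, the log2 ratio of mean mt-Co1 CPM in Q140 to that in wild type was -0.48 in column 2, 0.03 in column 5 and -0.06 in column 6. For Msh3-/- it was -0.19, -0.02, -0.19 and -0.03 in columns 2, 3, 5 and 6, and for Msh3+/- -0.44, 0.12 and 0.13 in columns 2, 5 and 6. These rest on 1 to 4 libraries a side. With plate column as a term, 0 of 23 members were called in these comparisons, and the signs of some mRNAs turned: mt-Atp8 was at 0.004 in Q140, mt-Co2, mt-Atp8, mt-Co3 and mt-Cytb were above 0 in Msh3+/-, and mt-Atp8 and mt-Co3 in Msh3-/-. Column itself called 0 of 19547 genes. Plate row called 36 genes (0.184%), with no member among them. By row the mean mRNA share ran from 3.80% ± 0.397 in row C to 4.78% ± 0.260 in row D (SD, n = 6 each). Row A held 3 Q140 Msh3-/- libraries and row G 3 Msh3-/- libraries. Unadjusted quasi-likelihood p for row was 0.0132 (mt-Cytb), 0.0193 (mt-Nd6), 0.0317 (mt-Nd1), 0.0347 (mt-Nd5), 0.0351 (mt-Nd2) and 0.0436 (mt-Co1). No mRNA had an adjusted p under 0.305. For column only mt-Co2 of the mRNAs was under 0.05 unadjusted (0.00801).

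**Figure D5:**
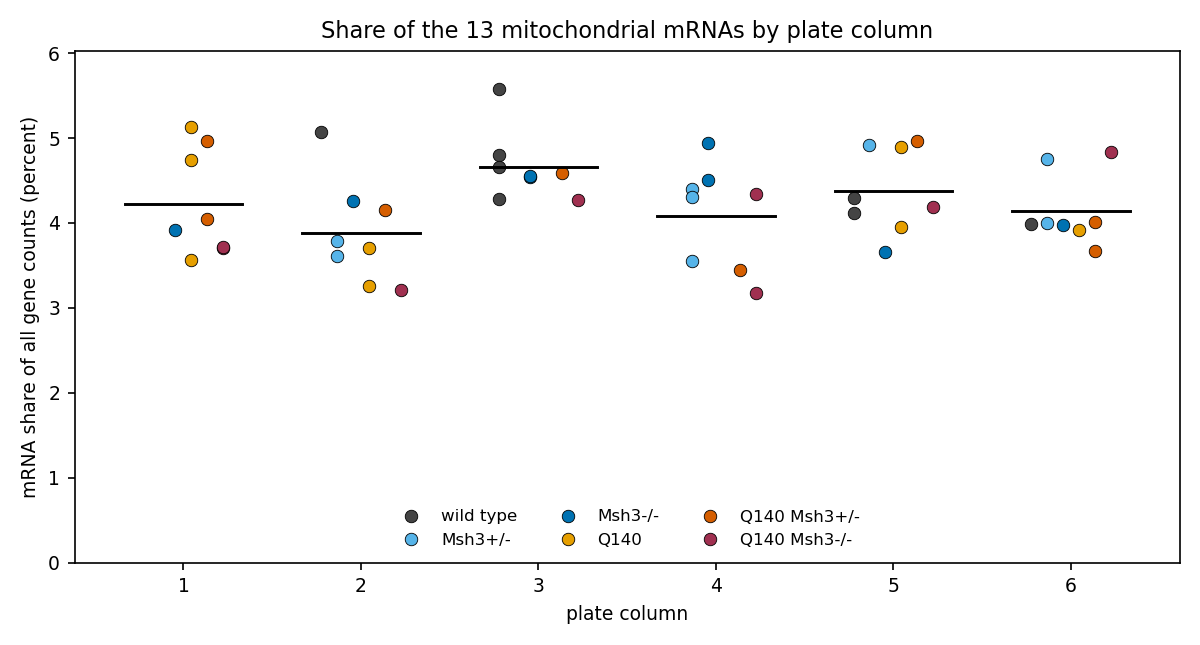
Percent of all gene counts held by the 13 mRNAs against plate column, 1 point per library coloured by genotype, with a line at the mean of each column. Column 3, with 4 of the 8 wild-type libraries, has the highest mean at 4.66%.

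The 8 members of high level, both rRNAs and 6 mRNAs, were among the 1955 genes with the highest mean levels, 10% of those tested. Between libraries of 1 genotype and sex, the residual SD of their log2 CPM ran from 0.16 for mt-Rnr1 and 0.17 for mt-Co1 to 0.25 for mt-Nd2, against a median of 0.07 over those 1955 genes. mt-Rnr1, the lowest of the 8, was at the 97.1 percentile of those genes. These SDs are a description, with no test.

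The nuclear genes that act with the mitochondrial genome were given as counts from lists. Of 76 nuclear genes of the 5 respiratory complexes that were tested, 0 were called in Q140 or Msh3-/- against wild type, against 0.102% and 0.113% of all genes. In Q140 averaged over Msh3, 1 of 76 was called, close to the 1.47% of all genes called there. It was Ndufs7, a complex I subunit, at 0.10 (SE 0.025, adjusted p = 0.0273). The medians of the nuclear complexes in Q140 against wild type were 0.03 (complex I, 37 genes) to 0.06 (complex II, 4 genes). The median of the mitochondrial mRNAs had the opposite sign, but it is the value of mt-Co2, inside the copied stretch. The 7 mRNAs not wholly inside the stretch were also below 0, from -0.24 to -0.11. In Msh3+/- and Msh3-/- against wild type the complex medians had both signs, from -0.01 to 0.03 and from -0.03 to 0.01. None of 16 genes of mitochondrial transcription and DNA maintenance and none of 28 of RNA processing was called in these comparisons. Of the 10 nuclear pseudogene candidates that may share reads with members, 0 were called in Q140, Msh3+/- or Msh3-/- against wild type. The shares of all genes called there were 0.102%, 0.0307% and 0.113%. The median of the candidates was -0.20 in Q140, -0.47 in Msh3+/- and -0.34 in Msh3-/-, with 9, 9 and 10 of 10 below 0. At an unadjusted p under 0.05 there were 0, 5 and 1 of them, beside 8.8%, 4.96% and 10.8% of all genes. Copies in 1 cluster may share reads, so these are not 10 separate results.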

How the data were processed

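RNA was sequenced in 48 libraries of mouse cerebral cortex. The kit was Illumina TruSeq stranded, per the labels' protocols, which also speak of striatal tissue at 6 months, while every other label gives cortex at 12 months, which was used. Per the submitters' processing notes the tools were STAR 2.7.5c, SAMtools 1.10 and HTSeq 0.12.3, with GRCm38 as a build; no order is stated. The annotation release, the strand setting and the treatment of reads that fit several places are not given in the sources used here. The authors deposited whole-number counts per gene and FPKM values; the FPKM gave back the GENCODE M21 length in 31 members, and 6 had no counts.

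Counts of 48795 genes were filtered with filterByExpr by group (minimum count 10, minimum total 15), scaled by TMM and tested two-sided with the quasi-likelihood test of edgeR 4.0.16 (glmQLFit, robust) with genotype and an additive sex term over all 48 libraries. P-values were adjusted by Benjamini-Hochberg over 19547 genes. The code was tested on simulated data. CPM of members are TMM-scaled. Totals of 37.7 to 68.3 M counts leave counting error small for the abundant mRNAs and large for tRNAs with under 100 counts. Intervals are 95%. Correlations used permutation tests. Nuclear copies were found with BLAST+ 2.17.0 at 95% identity over at least 100 bases.

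Members, lists and comparisons were chosen with earlier results of these data known. Every mRNA and rRNA was named, and tRNAs with a mean count of at least 20; mt-Ta and mt-Tt fall outside that rule. Alternatives were other scalings (DESeq2 1.42.0 size factors, library totals, totals without members, upper quartile), no filter, DESeq2, limma-voom (limma 3.58.1), only the compared groups, no sex term, a replicate block, plate terms and leaving out each library. Added after seeing the data were the log2 library total as covariate, a length outside the nuclear match, and 2 rules for leaving out libraries with markers of other tissues. The first rule (choroid plexus, pituitary or blood over 5 times the median library) removed 20 libraries; it was replaced, after its result was seen, by one without blood and with a minimum of 10 CPM, which removed 3. Both are reported.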

Additional observations from a re-analysis of the deposited data

Results flagged for a closer look

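In 156 groups of 8 libraries (23 members and the mRNA, rRNA and tRNA shares, in 6 genotypes), 6 had 1 library whose gap to the next was over 0.526 of the group's range, where chance gives about 1 in 20. mt-Tm stood at 1.45 CPM in Msh3-/- female 3, with the next library at 0.927. mt-Te stood at 0.872 CPM in Msh3+/- male 4 (next 0.512) and at 1.24 CPM in Msh3-/- female 1 (next 0.503). mt-Nd4 stood at 4264 CPM in wild-type male 4, with the next at 3374, and that library also had the highest mRNA share. mt-Nd3 was lowest in Q140 female 2, at 0.423 CPM, with the next at 0.615. The rRNA share was lowest in Q140 Msh3-/- male 1, at 0.362%, with the next at 0.433%, and that library had the lowest mRNA share.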

How the results depend on the processing

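No member was called under any alternative except mt-Ta, in Msh3-/- against wild type, with 1 library left out, so members called there ran from 0 to 1 over the leave-one-out fits and were 0 in the other 12 comparisons. The number of each replicate was not taken as a pairing of libraries: 0 to 2 of 8 same-numbered pairs per comparison correlated over 0.1. The highest r was 0.398, in Q140 Msh3-/- against Msh3-/-, and such a cut cannot decide whether libraries are paired. With the replicate block 0 members were called. Over all tested members, comparisons and settings, 467 of 11054 values changed sign (4.22%), none of them called.

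With plate column as a term, signs turned for mt-Atp8 (0.0039) and mt-Tm (-0.072) in Q140 against wild type, for mt-Co2 (0.010), mt-Atp8 (0.13), mt-Co3 (0.030) and mt-Cytb (0.0036) in Msh3+/-, and for mt-Atp8 (0.0074) and mt-Co3 (0.0025) in Msh3-/-. With plate row, mt-Rnr2 in Q140 was 0.020, and mt-Tm there was -0.0014 by DESeq2 and -0.019 by limma-voom. Without the 20 libraries of the first marker rule, values in Q140 were 0.030 (mt-Nd4), 0.059 (mt-Rnr2), -0.059 (mt-Ti), -0.16 (mt-Tm) and 0.014 (mt-Te). In Msh3+/- they were 0.041 (mt-Nd1), 0.030 (mt-Nd2), 0.037 (mt-Co1), 0.0071 (mt-Co3), 0.041 (mt-Nd4), 0.070 (mt-Nd5), 0.017 (mt-Nd6), 0.078 (mt-Cytb), 0.0099 (mt-Rnr2), 0.059 (mt-Tq), 0.011 (mt-Tw) and 0.12 (mt-Te). In Msh3-/- they were 0.10 (mt-Co2), 0.074 (mt-Atp8), 0.028 (mt-Atp6), 0.037 (mt-Rnr2), 0.057 (mt-Ti), 0.0076 (mt-Tq) and 0.049 (mt-Tm). That rule leaves 28 libraries; beyond the fewer samples, the cause was not tested. Without the 3 libraries of the final marker rule, no named value turned.

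Over the fits that left out 1 library, values in Q140 ranged from -0.17 to 0.0063 for mt-Atp8 (-0.11 with all libraries), from -0.072 to 0.013 for mt-Rnr2 (-0.03), from -0.088 to 0.17 for mt-Ti (0.08), from -0.065 to 0.14 for mt-Tm (0.03) and from -0.15 to 0.012 for mt-Tq (-0.09). In Msh3-/- mt-Co3 ranged from -0.11 to 0.028 (-0.04). With the rRNAs in the denominator mt-Co1 held 38.1%. Over the bases outside the nuclear match mt-Co1 was 16667 FPKM and mt-Nd4 5620. Using nuclear counts as denominator moved no group's share by more than its SD. Leaving out 1 of 8 libraries cannot move a mean that far, so only ranges are given. The mean mRNA share then ran from 4.46% to 4.69% in wild type and from 3.80% to 4.04% in Q140 Msh3-/-. Levels of tRNAs and of the 6 mRNAs inside the copied stretch are limited by their low counts.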
